A study of Triticum aestivum with 48 samples.

Results

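Root and shoot of wheat seedlings of the genotype Chotilarma (CL) were compared at control nitrogen supply, from 3 root arrays and 3 shoot arrays, 6 of the 48 arrays of the study. The arrays were chosen by their titles, which name CL, nitrogen control and the tissue. The study asked how seedlings of 4 bread wheat genotypes, HD2967, K9107, K307 and CL, respond to chronic nitrogen limitation, and hybridised total RNA of roots and shoots to the Affymetrix Wheat Genome Array in 16 groups of 3 arrays. Both CL groups used here came from seedlings of the same genotype, grown for 15 days in vermiculite and perlite on a modified medium in which 8 mM calcium nitrate was the nitrogen source. Tissue is the only difference between these groups that is stated. The CL groups at low nitrogen, which appear further on, had 0.08 mM calcium nitrate, with no other difference in growth stated. Roots and shoots were taken whole, so each array averages many cell types. The submitters describe 3 sets of pots per genotype, but no label ties an array to a pot or says how many plants it holds, so the p-values measure the spread between these arrays, which may be technical.

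Green shoot cells carry chloroplasts, in which the light reactions split water, move electrons through photosystem II, the cytochrome b6f complex and photosystem I, and feed the Calvin cycle that fixes carbon dioxide. Photorespiration, which follows from the oxygenase reaction of Rubisco, yields hydrogen peroxide that catalase removes. Roots grown in the dark of a substrate build little of this apparatus. Their tips carry meristems, as does the base of a grass shoot, and dividing cells make histones to package new DNA and tubulins for the microtubules of the spindle and the cell cortex.

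The deposited values are log2 signal intensities, in which a difference of 1 stands for a factor of 2 in signal only where the scale is linear. The CL scale was not: the medians of the 6 arrays lay between 1.17 and 1.26, and values near them are compressed. Differences are therefore given as root minus shoot on the log2 scale and never as folds, and where the lower tissue sat near the array medians the size is uncertain. A probe set is a group of probes designed against 1 transcript or several similar ones, so its value need not come from 1 gene alone. In all, 61179 probe sets were tested with limma at an adjusted p under 0.05. Each gene is represented by the probe set that was brightest on average over the 6 arrays. An informative symbol was found for 102 genes, covered by 200 probe sets.

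The labels were checked against markers. The summed level of the 8 probe sets of the leaf genes petC, PsbO, PsbP, PRK and FBP was 12.2, 13.4 and 11.9 on the root arrays and 56.0, 48.5 and 53.4 on the shoot arrays, and the tissues did not overlap. No positive root marker was detected: TaALMT1, an aluminium-activated malate transporter known from root tips, read 0.92, 0.97 and 1.26 in root and 0.94, 0.74 and 0.82 in shoot, and DMAS1, a deoxymugineic acid synthase, had means of 1.70 in root and 1.40 in shoot. The leading principal component of the 6 arrays held 62.6% of their variance and parted root from shoot. Shoot array 1 stood apart from the other shoot arrays, with correlations of 0.86 and 0.903 to them, while shoot arrays 2 and 3 correlated at 0.944 and the root arrays at 0.951 to 0.977 with each other. On shoot array 1 the 27 grain protein probe sets also summed to 46.9, against 33.7 and 33.1 on the other shoot arrays and 31.0 to 37.5 on the root arrays. Of the 27, 16 lay above the median of this array, against 5 to 10 elsewhere. By definition, as many of all probe sets lie above an array median as below it. Some dim probe sets of other genes, such as GA20ox1b and LOC543413, were also highest on shoot array 1, so the rise was not confined to grain proteins. The part of shoot array 1 in the results was not tested beyond leaving it out.

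Of all probe sets, 3725 differed between CL root and shoot, 6.09%, of which 2069 (3.38%) were higher in root and 1656 (2.71%) higher in shoot. Across the whole array the median difference was 0.02. Among probe sets that passed, those higher in shoot had the larger gaps: the median size was 2.54 in shoot and 1.89 in root, and a size over 4 was reached by 390 probe sets higher in shoot and 125 higher in root. The count was 4333 without shoot array 1, with 2062 higher in root and 2271 in shoot, while it was 1846 without root array 1 and 2422 without root array 3. No overlap between the 3 root and 3 shoot values was seen in 23.3% of all probe sets. Of the 102 named genes, 26 passed, 20 higher in shoot and 6 higher in root, beside the 6.09% of all probe sets that passed. Of all 102 genes 42 had no overlap between tissues, the 26 among them, and among all probe sets 9.71% had no overlap with shoot higher and 13.6% with root higher. Non-overlap of the 26 is all but fixed by their passing the test. Named genes were each read from their brightest probe set, so the shares are not of like sets, and at the level of probe sets 46 of the 200 passed. Without shoot array 1, 25 of the 26 genes kept their call. The methods' t-test with Benjamini-Hochberg adjustment was read for 25 of the 26 genes, without cys1. Of these, XIP-I, Glc1, Tubb4, 1-FEHw2, TSA, Pgk-1, TaPrx1, AGP-S, RPL9, wcH2A-9, wcH2B-8 and Tubb5 did not pass by it. In bulk samples, fewer cells of a type and less RNA per cell cannot be told apart.

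Genes of the photosynthetic light reactions were far higher in shoot. All 3 named genes of this group, petC, PsbP and PsbO, passed, with 4 of 5 probe sets higher in shoot and a median difference of -6.86, against 2.71% of all probe sets. petC, which encodes the Rieske iron-sulfur protein of the cytochrome b6f complex, read 1.11, 1.52 and 0.90 on the root arrays and 9.67, 9.40 and 9.63 on the shoot arrays. The root values lay near the array medians and every shoot array was above 9. The difference of -8.39 ± 0.20 (SE, n = 3 per tissue) had an adjusted p of 2.66e-05, and petC had the widest gap of the 102 genes. PsbP, an extrinsic protein of the oxygen-evolving complex of photosystem II, read 2.44, 1.97 and 1.75 in root and 10.01, 8.36 and 9.31 in shoot. Its partner PsbO, which stabilises the manganese cluster, read 2.71, 2.17 and 2.44 in root and 9.79, 8.59 and 9.52 in shoot. For both genes shoot array 2 was the lowest of the shoot arrays and still stood over 5 units above every root array. PsbP differed by -7.17 ± 0.43 (adjusted p = 0.000338) and PsbO by -6.86 ± 0.34 (adjusted p = 0.000181). A second PsbP probe set also passed, with means of 2.38 in root and 7.88 in shoot. A second petC probe set did not, with means of 0.61 in root and 0.74 in shoot, both at the low end, so the mean over both petC probe sets differed by -4.26.

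The genes of carbon fixation behaved alike on their brightest probe sets. The 3 named genes PRK, FBP and rbcl all passed as higher in shoot, from 6 of 31 probe sets, beside 2.71% of all probe sets. No probe set of the group passed as higher in root, beside 3.38% of all. The median over the 31 was only -0.33, since 28 of them are probe sets annotated to rbcl and most of these lay at the low end in both tissues. PRK, the phosphoribulokinase that regenerates the carbon dioxide acceptor of the Calvin cycle, read 0.69, 1.30 and 0.99 in root and 8.85, 7.79 and 8.29 in shoot. The root values lay near the array medians, so the size of the gap is uncertain. PRK differed by -7.32 ± 0.30 (adjusted p = 0.000106). FBP, a fructose-1,6-bisphosphatase of the same cycle, read 1.37, 2.71 and 1.78 in root and 7.09, 6.45 and 6.51 in shoot, a difference of -4.73 ± 0.37 (adjusted p = 0.000936). Its second probe set was at the low end in both tissues, and the mean over both differed by -2.39.

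The symbol rbcl denotes the large subunit of Rubisco, the carbon-fixing enzyme, which plants encode in the chloroplast genome. The reference table places the gene under this name on a nuclear chromosome, so which sequence these probe sets read is not settled here, and the RNA was copied with oligo(dT) primers, which favour transcripts with a poly(A) tail. On its brightest probe set rbcl read 6.28, 5.54 and 6.65 in root and 14.02, 12.93 and 13.98 in shoot, a difference of -7.49 ± 0.40 (adjusted p = 0.000242). All 3 root arrays were above 5, where the other photosynthesis genes lay near the low end, and its shoot level was the highest of the 26 genes that passed. Of the 28 probe sets, 4 passed and all 4 were higher in shoot, with differences from -1.83 to -7.49, while 22 lay within 1 unit of no difference. Shoot means ran from 0.59 to 13.6 with a median of 1.06, and the mean over all 28 probe sets differed by -0.94. The value for rbcl thus rests on the few probe sets that gave signal.

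**Figure D1:**
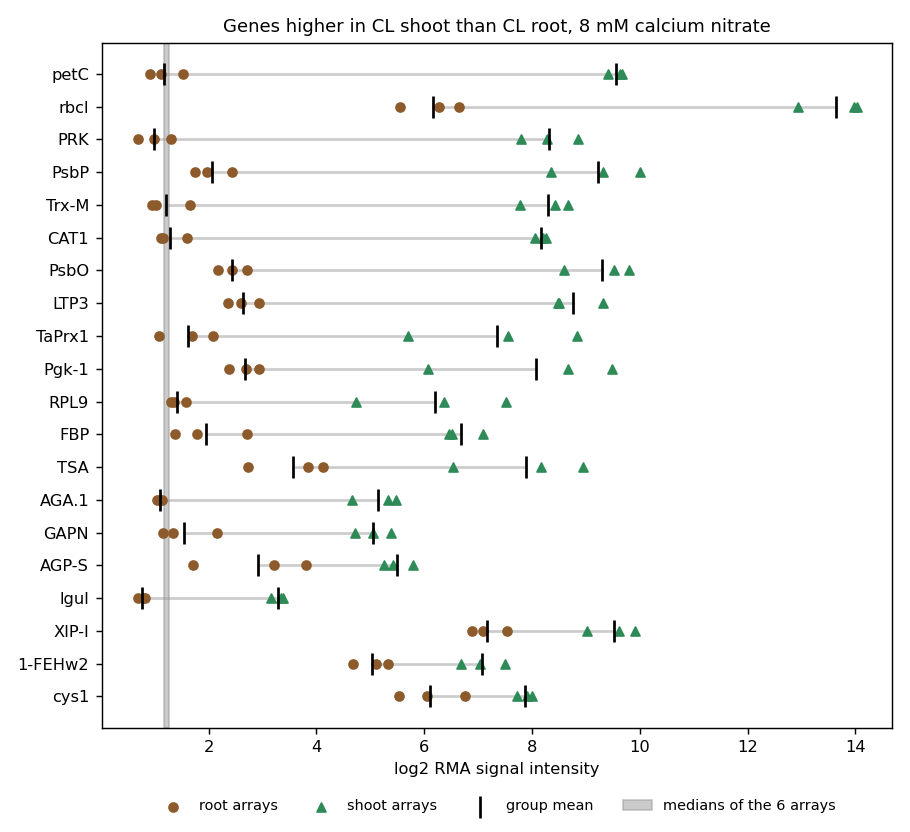
Levels of the 20 genes higher in CL shoot than in CL root at 8 mM calcium nitrate, each read from its brightest probe set. The horizontal axis is the log2 signal intensity. Circles are root arrays, triangles shoot arrays, 3 each, vertical ticks are group means, and the grey band spans the medians of the 6 arrays. No gene shows overlap between tissues, and petC goes from root values near the array medians to shoot values above 9.

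Redox genes leaned to shoot as well. Of 6 named genes Trx-M, CAT1, TaPrx1 and lgul passed, all higher in shoot. Among the 14 probe sets of the group 6 were higher in shoot and 0 in root, beside 2.71% and 3.38% of all probe sets. The median difference of the group was -2.26. Trx-M, a thioredoxin of the m type that passes reducing power from the light reactions to chloroplast enzymes, read 1.66, 1.03 and 0.95 in root and 8.67, 7.78 and 8.43 in shoot. CAT1, a catalase, read 1.59, 1.15 and 1.11 in root and 8.20, 8.05 and 8.26 in shoot and its shoot arrays were close together. Trx-M differed by -7.08 ± 0.30 (adjusted p = 0.000113) and CAT1 by -6.88 ± 0.18 (adjusted p = 2.66e-05). TaPrx1 read 2.08, 1.70 and 1.07 in root and 8.83, 5.70 and 7.55 in shoot, so its shoot arrays spread over 3 units while remaining above all root arrays, and the difference was -5.74 ± 0.76 (adjusted p = 0.00743). Other probe sets of CAT1 and TaPrx1 carried less signal, and the means over all probe sets differed by -3.37 and -3.47. The gene lgul, a lactoylglutathione lyase that clears methylglyoxal with glutathione, stayed low in both tissues, at 0.69, 0.82 and 0.79 in root and 3.34, 3.15 and 3.37 in shoot. Its difference was -2.52 ± 0.14 (adjusted p = 0.000273), with the root values below the array medians. GSTZ1, a zeta-class glutathione transferase, missed the threshold on its brightest probe set (-1.87 ± 0.43, adjusted p = 0.0588), although another of its probe sets passed at -2.31 ± 0.36 (adjusted p = 0.0147). PER1 did not pass either, at 0.78 ± 0.48 (adjusted p = 0.515).

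The genes of starch and fructan metabolism that passed, AGA.1, AGP-S and 1-FEHw2, were all higher in shoot. They came from 7 named carbohydrate genes with 10 probe sets, whose median was -0.12. Of these probe sets 3 were higher in shoot and 0 in root, beside 2.71% and 3.38% of all probe sets. AGA.1 and AGP-S both encode ADP-glucose pyrophosphorylase, which makes the sugar donor for starch. AGA.1 read 1.09, 1.14 and 1.04 in root and 5.32, 4.65 and 5.47 in shoot, a difference of -4.06 ± 0.24 (adjusted p = 0.000305). Its root values lay below the array medians, and with its second, dim probe set the mean differed by -1.87. AGP-S had root signal on some arrays, reading 3.21, 1.71 and 3.81 in root and 5.43, 5.26 and 5.79 in shoot. Its difference of -2.59 ± 0.52 had an adjusted p of 0.0377 and lost the threshold without shoot array 1 (0.0659), shoot array 2 (0.0807), shoot array 3 (0.118) or root array 1 (0.120). The fructan 1-exohydrolase 1-FEHw2, which releases fructose from stored fructans, was measured well above the low end in both tissues, with 5.10, 4.68 and 5.33 in root and 6.69, 7.51 and 7.04 in shoot. It differed by -2.04 ± 0.27 (adjusted p = 0.00739), and did not pass by the methods' t-test (adjusted p = 0.0861).

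Of 9 named defence genes, 2 passed as higher in shoot and 1 as higher in root, and 6 did not pass. Among their 14 probe sets 3 were higher in shoot and 1 in root, beside 2.71% and 3.38% of all probe sets, with a median of -0.70. A count of 1 says little about the group. LTP3, a lipid transfer protein, read 2.37, 2.93 and 2.60 in root and 8.51, 8.49 and 9.31 in shoot, a difference of -6.14 ± 0.28 (adjusted p = 0.000144). A second LTP3 probe set was dimmer and did not pass, and the mean over both differed by -3.99. XIP-I, an inhibitor of microbial xylanases, was clear in both tissues, at 6.89, 7.08 and 7.53 in root and 9.03, 9.62 and 9.91 in shoot. Both of its probe sets passed, and the brighter differed by -2.35 ± 0.28 (adjusted p = 0.00499). Glc1, a beta-glucanase, went the other way, with 8.30, 8.47 and 7.54 in root and 7.01, 6.49 and 6.48 in shoot. The nearest root and shoot values of Glc1 lay close together, and its difference of 1.44 ± 0.29 (adjusted p = 0.0379) lost the threshold without shoot array 2 (0.104), shoot array 3 (0.118), root array 1 (0.165) or root array 2 (0.122). The mean over both Glc1 probe sets differed by 0.70 (adjusted p = 0.104).

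RPL9, a ribosomal protein L9 of the plastid, was the single gene of 8 translation genes that passed. It read 1.30, 1.36 and 1.58 in root and 7.52, 4.74 and 6.37 in shoot, so it was at the low end in root and spread widely among shoot arrays, and it differed by -4.80 ± 0.65 (adjusted p = 0.00813). The median of the 10 translation probe sets was 0.66, and 1 was higher in shoot and 0 in root, beside 2.71% and 3.38% of all probe sets. Pgk-1, a phosphoglycerate kinase, an enzyme shared by glycolysis and the Calvin cycle, showed the same spread, with 2.70, 2.93 and 2.37 in root and 9.49, 6.07 and 8.67 in shoot. Its difference of -5.41 ± 0.83 (adjusted p = 0.0134) lost the threshold without shoot array 3 (0.0541), root array 1 (0.0692), root array 2 (0.0570) or root array 3 (0.0593). GAPN, the non-phosphorylating glyceraldehyde-3-phosphate dehydrogenase that makes NADPH in the cytosol, read 1.15, 1.34 and 2.15 in root and 5.39, 5.06 and 4.71 in shoot. It differed by -3.50 ± 0.31 (adjusted p = 0.00147). TSA read 3.84, 2.72 and 4.13 in root and 8.95, 6.53 and 8.17 in shoot, a difference of -4.32 ± 0.67 (adjusted p = 0.0137). It lost the threshold without shoot array 3 (0.0554), root array 1 (0.0622) or root array 2 (0.0565), and the mean over both TSA probe sets differed by -2.18. In TaPrx1, Pgk-1, RPL9 and TSA alike, shoot array 2 was the lowest and shoot array 1 the highest of the shoot arrays. Shoot array 2 also had the highest signal of the BioB spike-in probe sets, a bacterial control RNA, with a mean of 10.2 against 8.77 to 9.44 on the other 5 arrays, and whether this bears on those genes was not tested. The 20th gene higher in shoot, cys1, had a smaller difference than the others of -1.77 ± 0.31 (adjusted p = 0.0236) and is named here although the naming rule left it out.

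Tubulins leaned to root, though on their brightest probe sets only Tubb5 and Tubb4 passed. Of the 10 probe sets of the 6 named tubulin genes, 6 were higher in root and 0 in shoot, beside 3.38% of all probe sets higher in root. All 10 differences were above 0, and their median was 2.39. Tubb5, a beta-tubulin, read 5.30, 4.65 and 5.26 in root and 2.11, 1.70 and 2.84 in shoot, a difference of 2.85 ± 0.33 (adjusted p = 0.00452). Each of its 4 probe sets passed, with differences from 2.85 to 3.20. Tubb5 thus gave 4 of the 6 tubulin probe sets that passed, and these are not separate measurements. Tubb4, another beta-tubulin, was strong in both tissues, at 7.57, 7.49 and 7.53 in root and 6.23, 6.45 and 6.89 in shoot. The tissues did not overlap, but its difference of 1.01 ± 0.20 (adjusted p = 0.0355) lost the threshold without shoot array 2 (0.0938), root array 1 (0.154), root array 2 (0.109) or root array 3 (0.121). TUBA, an alpha-tubulin, missed the threshold on its brightest probe set at 1.09 ± 0.28 (adjusted p = 0.0882) and passed on its other at 2.92 ± 0.34 (adjusted p = 0.00421). The values of tubb2 did not part the tissues, with 8.47, 7.94 and 9.14 in root and 8.25, 3.85 and 8.59 in shoot, where shoot array 2 alone was low. Nor did tubb1 (1.93 ± 0.65, adjusted p = 0.182) or tubb3 (1.37 ± 0.32, adjusted p = 0.0638) pass, although their values did not overlap. The count of 6 tubulin probe sets was 3 without root array 1 and 6 without shoot array 1. Outside the tubulins, the cytoskeleton group held profilin PRO1, an actin-binding protein, which leaned to shoot: its brighter probe set missed the threshold at -0.87 ± 0.27 (adjusted p = 0.144) and its other passed at -0.84 ± 0.18 (adjusted p = 0.0485). TUBA, PRO1 and GSTZ1 are described because a second probe set passed, a choice made after their values were seen.

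Core histones, the proteins that DNA is wound on, were higher in root as well. Of the 18 probe sets of 5 histone genes, 10 were higher in root and 0 in shoot, beside 3.38% and 2.71% of all probe sets. All 18 differences were above 0, and the median was 2.40. wcH2B-8, a histone H2B gene, read 5.12, 5.60 and 6.21 in root and 0.83, 2.56 and 1.60 in shoot. wcH2A-3, a histone H2A gene, read 4.33, 3.69 and 4.71 in root and 1.01, 1.09 and 1.05 in shoot, where all 3 arrays lay below the array medians. wcH2A-9, also H2A, read 4.88, 5.26 and 6.19 in root and 2.63, 2.27 and 2.42 in shoot. Every root array exceeded every shoot array by over 2 units on the brightest probe set of each of these genes. The differences were 3.98 ± 0.48 (adjusted p = 0.00506) for wcH2B-8, 3.20 ± 0.27 (adjusted p = 0.00115) for wcH2A-3 and 3.00 ± 0.34 (adjusted p = 0.00402) for wcH2A-9. All 6 probe sets of wcH2A-9 passed, with differences from 2.42 to 5.68, and 3 of the 7 of wcH2B-8 passed, whose mean differed by 1.74. A second wcH2A-3 probe set did not pass (1.14 ± 0.28, adjusted p = 0.0788), with shoot values of 1.39, 2.38 and 1.85. The genes wcH2B-6 (1.08 ± 0.41, adjusted p = 0.236) and wcH2A-2 (0.37 ± 0.15, adjusted p = 0.279) did not pass, and the latter was at the low end in both tissues. Histone genes share sequence within a family, and probe sets of one can read another, so the probe sets are not separate measurements. Leaving out root array 3 put 1 of the 18 below 0, and over the 6 arrays left out in turn 9 to 11 passed, 10 of them without shoot array 1. The chromatin protein gene Hmgb3 did not pass (1.00 ± 0.40, adjusted p = 0.267).

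**Figure D2:**
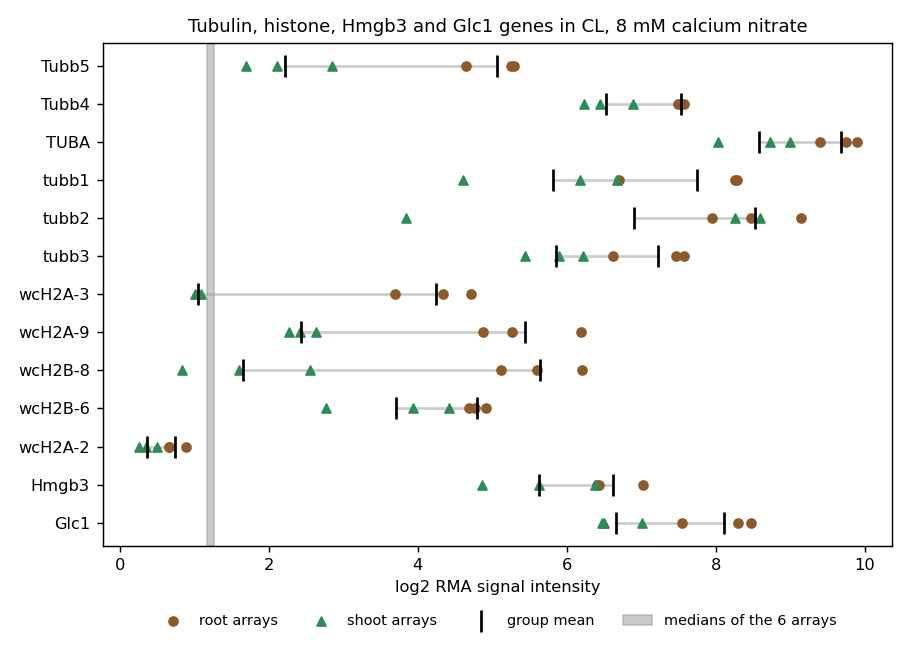
Levels of the named tubulin and histone genes, Hmgb3 and Glc1 in CL at 8 mM calcium nitrate. The horizontal axis is the log2 signal intensity. Circles are root arrays, triangles shoot arrays, 3 each, vertical ticks are group means, and the grey band spans the medians of the 6 arrays. Tubb5, Tubb4, wcH2A-3, wcH2A-9, wcH2B-8 and Glc1 passed at an adjusted p under 0.05, and the other genes shown did not.

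In a further 6 groups no probe set passed. Among genes of ion and metal handling (9 probe sets, median -0.47), ha1, a plasma membrane proton pump, was strong in both tissues at 8.92, 8.26 and 8.87 in root and 9.12, 9.48 and 9.30 in shoot. Its values did not overlap, yet the difference of -0.62 ± 0.22 had an adjusted p of 0.220. TaPCS1, a phytochelatin synthase, differed by -0.66 ± 0.42 (adjusted p = 0.527) and TaALMT1 by 0.21 ± 0.16 (adjusted p = 0.602). Of the folding and turnover genes (4 probe sets, median -0.39), UBC1, a ubiquitin-conjugating enzyme, differed by -0.70 ± 0.22 (adjusted p = 0.151) and the immunophilin FKBP70 by 0.41 ± 0.30 (adjusted p = 0.595). The TATA-binding protein TBP1 differed by 0.63 ± 0.21 (adjusted p = 0.182) and the zinc finger gene WZF1 by 0.24 ± 0.57 (adjusted p = 0.892), the only transcription and signalling genes with names. The value of WZF1 was -0.07 without shoot array 1 and -0.22 without root array 1. The gibberellin 20-oxidases GA20ox1b and GA20ox1d and the cell wall enzyme XTH differed by -0.72 ± 0.38, -0.42 ± 0.43 and -0.44 ± 0.37, with adjusted p of 0.431, 0.721 and 0.652. Among stress proteins (11 probe sets, median -0.00437) all of LEA1, Rab15 and EM, genes known from dehydration and seed maturation, had tissue means under 1.2, so a difference was not measurable on this scale. Among 27 grain protein probe sets (median -0.09), Gli-8 differed by 0.67 ± 0.25 (adjusted p = 0.239), while Gli-B2-11 and the amylase/trypsin inhibitor gene ATI with the smaller p were near the low end except on shoot array 1, where they read 1.64 and 1.69.

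**Figure D3:**
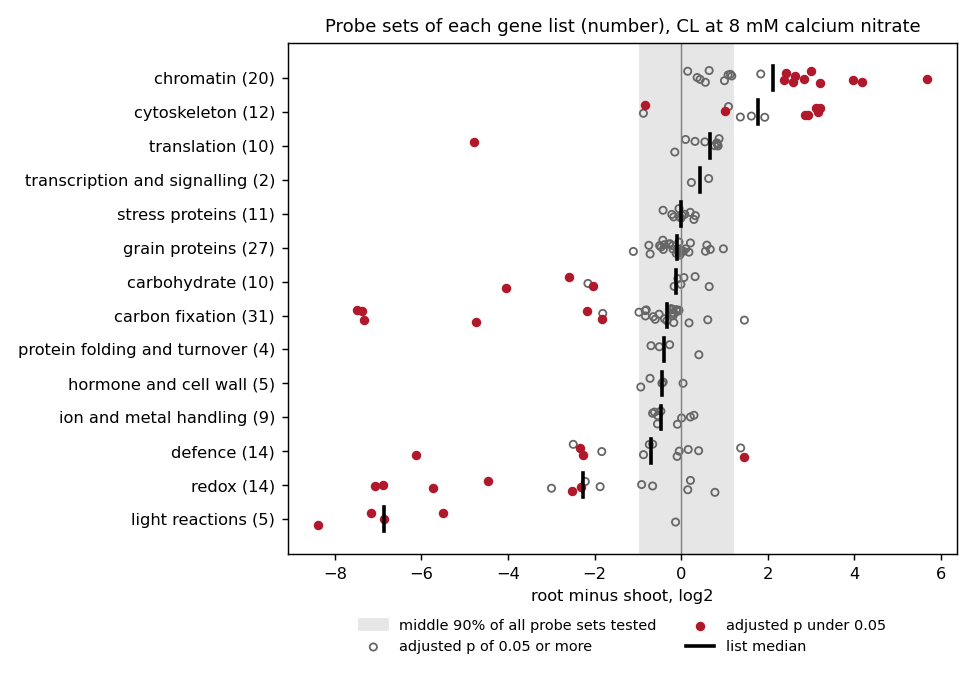
Root minus shoot difference of every probe set in 14 groups of named genes, CL at 8 mM calcium nitrate, with the number of probe sets in parentheses. The horizontal axis is the difference on the log2 scale, filled points passed at an adjusted p under 0.05, open points did not, black bars are group medians, and the grey band holds the middle 90% of all probe sets tested. The light reaction median lies at -6.86, the redox median at -2.26, and the chromatin median at 2.11.

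The wheat control probe sets of the array, kept in a separate fit, give the usual reference genes. Actin, EF1a and GAPDH did not pass on any probe set, but those for EF1a were at the low end in both tissues and so were most for GAPDH, so they say little about constancy. Ubiquitin, the brightest of them, read 11.99, 11.84 and 12.08 in root and 10.97, 10.58 and 11.20 in shoot on its 5′ probe set, a difference of 1.05 ± 0.20 (adjusted p = 0.0300). Its middle probe set also passed (0.78 ± 0.15, adjusted p = 0.0344). The 3′ probe set of Ubiquitin did not (0.59 ± 0.43, adjusted p = 0.591), and its tissues overlapped. The 3′ probe set of G-6-PDH, glucose-6-phosphate dehydrogenase, read 7.45, 6.60 and 7.05 in root and 5.45, 5.18 and 5.34 in shoot, a difference of 1.71 ± 0.24 (adjusted p = 0.00911). Sucsyn, sucrose synthase, which breaks sucrose down in sink tissue, read 8.56, 7.86 and 8.77 in root and 6.58, 6.87 and 6.99 in shoot on its 3′ probe set. Sucsyn differed there by 1.58 ± 0.27 (adjusted p = 0.0194) and on its middle probe set by 1.85 ± 0.37 (adjusted p = 0.0358). The 5′ and middle probe sets of G-6-PDH (adjusted p = 0.0633 and 0.0531) and the 5′ probe set of Sucsyn (adjusted p = 0.103) did not pass. The signal of 18S ribosomal RNA was 9.46 ± 0.27 (SD, n = 3) in root and 7.53 ± 1.23 in shoot, a difference that did not pass (adjusted p = 0.140).

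Most of the array has no gene name here, and the widest gaps belong to unnamed probe sets. Ta.2752.3.S1_x_at read 1.09, 1.74 and 2.35 in root and 12.45, 10.83 and 12.04 in shoot, the widest difference towards shoot at -10.04 ± 0.49 (adjusted p = 0.000186). TaAffx.128757.3.S1_s_at followed, with a difference of -9.33 ± 0.42 (adjusted p = 0.000139). On the root side Ta.5174.2.S1_at read 7.67, 6.81 and 8.31 in root and 0.89, 1.19 and 1.06 in shoot, a difference of 6.55 ± 0.37 (adjusted p = 0.000281), and TaAffx.37252.1.S1_at differed by 6.32 ± 0.37 (adjusted p = 0.000303). These unnamed probe sets kept the same direction in the other 3 genotypes and at low nitrogen. The fitted differences of Ta.2752.3.S1_x_at were -6.66 in HD2967, -4.82 in K9107 and -6.38 in K307, and those of Ta.5174.2.S1_at were 5.69, 4.95 and 5.57.

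Whether the tissue difference depends on nitrogen was tested in 1 fit of the 12 CL arrays, as root minus shoot at 8 mM minus the same at 0.08 mM. The difference changed for 363 probe sets, 0.593% of those tested, of which 332 (0.543%) were positive, that is, root stood relatively higher at control supply, and 31 (0.0507%) negative. None of the 20 genes higher in shoot, photosynthesis genes included, passed this limma test. Their interaction values lay between -0.76 and 0.76, and their smallest adjusted p was 0.582, while 5456 probe sets were under an unadjusted p of 0.05. At 0.08 mM petC differed between tissues by -7.86 and CAT1 by -6.64, and all 20 genes were again higher in shoot. A p that misses the threshold does not show that the gap was the same, and the SE of 0.94 for the Pgk-1 interaction, whose value was 0.00, leaves room for a change in either direction.

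The 14 named probe sets that passed this test all belonged to 5 histone or tubulin genes, and all were positive. Among them were 11 of the 18 histone probe sets, whose median was 5.02, and 3 of the 10 tubulin probe sets, whose median was 2.98, against a median of -0.01 over all probe sets. On their brightest probe sets the genes wcH2B-6, wcH2A-2, TUBA, Tubb4, tubb1, tubb2 and tubb3 did not pass, with adjusted p from 0.140 to 0.629. At control supply the median histone level was 3.91, 3.69 and 4.70 on the root arrays and 1.00, 1.55 and 1.01 on the shoot arrays, while at low supply it was 1.93, 2.71 and 3.42 in root and 4.96, 5.22 and 4.69 in shoot. The order of the tissues was thus turned round at low nitrogen, with no overlap at either supply, and the shoot levels moved further than the root levels. wcH2B-8 went from 0.83, 2.56 and 1.60 in shoot at 8 mM to 7.16, 6.66 and 5.82 at 0.08 mM, and from 5.12, 5.60 and 6.21 to 3.28, 3.92 and 4.15 in root. Its tissue difference went from 3.98 to -2.76, an interaction of 6.74 ± 0.67 (adjusted p = 0.00104). wcH2A-9 had 6.88, 6.81 and 6.32 in shoot and 4.15, 3.89 and 4.77 in root at low supply, so shoot exceeded root on all arrays, and its interaction was 5.40 ± 0.46 (adjusted p = 0.000468). wcH2A-3 kept its root level, at 4.06, 3.85 and 4.11 at low supply, close to control, while its shoot values were 4.81, 5.34 and 4.61 against about 1 at control supply, an interaction of 4.11 ± 0.35 (adjusted p = 0.000468). The second probe set of wcH2A-3 was not among the 14 that passed.

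The median tubulin level in shoot was 4.04, 2.77 and 4.55 at control supply and 6.59, 6.50 and 5.82 at low supply, and in root it was 6.38, 5.85 and 6.43 against 5.51, 5.97 and 5.63. Tubb5 read 5.17, 5.24 and 4.52 in shoot and 3.75, 4.73 and 4.80 in root at low supply, with overlap between the tissues, and its interaction was 3.40 ± 0.51 (adjusted p = 0.0129). Tubb4, whose tissue difference was small at either supply, had an interaction of 0.55 ± 0.32 (adjusted p = 0.629). For low nitrogen root array 1 the labels disagree on the tissue, the characteristic saying shoot and the other fields root. Without it 11 histone probe sets again passed and 5 tubulin probe sets, with 1 histone probe set below 0, and without control shoot array 1 the counts were 11 and 2. Without control shoot array 3, 5 tubulin probe sets passed.

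**Figure D4:**
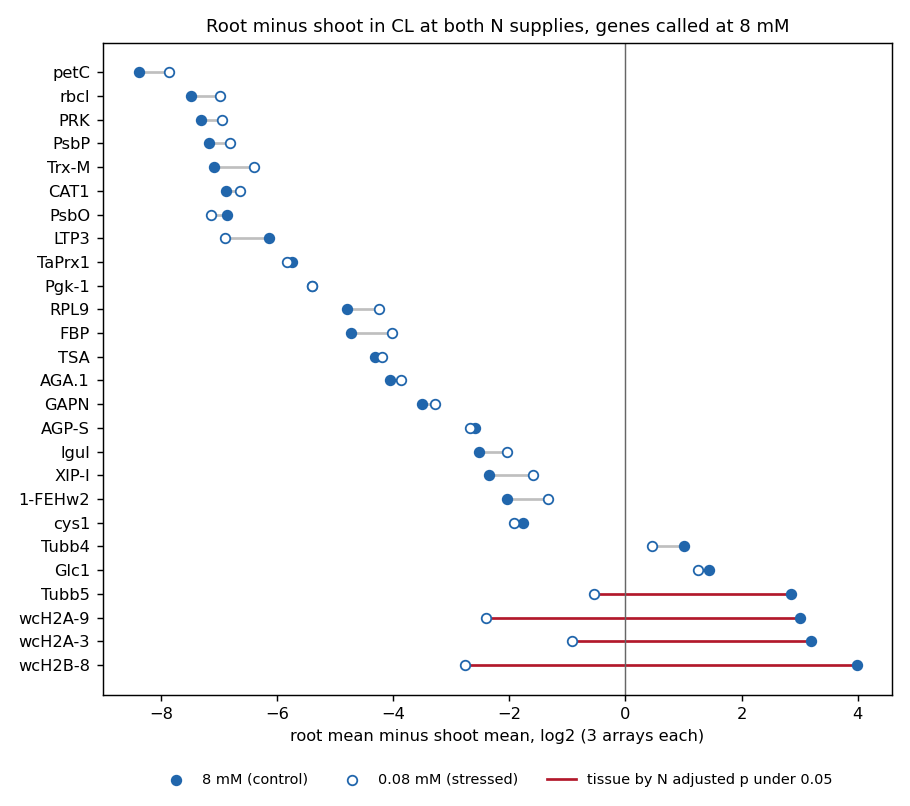
Root mean minus shoot mean of the 26 genes that passed at 8 mM, in CL at 8 mM (filled) and 0.08 mM (open) calcium nitrate, 3 arrays per mean. The horizontal axis is the difference on the log2 scale, and red lines join the points of the genes whose tissue difference changed with nitrogen at an adjusted p under 0.05. The 20 genes higher in shoot are negative at both supplies, while Tubb5, wcH2A-9, wcH2A-3 and wcH2B-8 go from positive to negative.

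The other genotypes give the same tissue comparison at 8 mM on other scales. Their 18 control arrays lay in 3 normalization sets with medians from 4.33 to 5.39, and the CL arrays formed a set of their own, so scale and genotype cannot be told apart and CL was not tested against them. Differences passed for 14158 probe sets in HD2967 (23.1%), 15349 in K9107 (25.1%) and 16708 in K307 (27.3%). Those higher in root were 12.2%, 13.4% and 14.8% of all probe sets in these genotypes, and 6707, 7128 and 7662 probe sets were higher in shoot, which is 11.7% in K9107 and 12.5% in K307. Without the normalization set as a term the counts were 5783, 6413 and 6516, and calls higher in root were then the minority, at 45.9%, 48.6% and 41.8%. Of the 26 CL genes, 26, 25 and 21 had the same sign in HD2967, K9107 and K307, and 22, 24 and 18 also passed there in that direction. Of the 20 genes higher in CL shoot 19, 19 and 17 did so, and of the 6 higher in CL root 3, 5 and 1. Over all probe sets, 65.7%, 65.2% and 63.0% shared the CL sign, and among the 3725 that passed in CL the shares were 97.7%, 95.2% and 88.6%. The leaf genes had the same direction in each: petC differed by -7.66 ± 0.33 in HD2967, -7.03 ± 0.33 in K9107 and -6.54 ± 0.33 in K307, and PRK by -7.45, -6.65 and -7.05. The brightest rbcl probe set differed less, by -3.99 ± 0.20, -3.08 ± 0.20 and -2.28 ± 0.20.

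Some genes with smaller CL differences had values of another size or sign elsewhere. XIP-I, at -2.35 in CL, differed by -0.40 ± 0.16 (adjusted p = 0.0832) in HD2967, -0.34 ± 0.16 (adjusted p = 0.138) in K9107 and 0.15 ± 0.16 (adjusted p = 0.536) in K307. Glc1, higher in CL root, was at 0.50 ± 0.23 (adjusted p = 0.148) in HD2967 and -0.44 ± 0.23 (adjusted p = 0.191) in K307, and was higher in shoot in K9107 at -0.92 ± 0.23 (adjusted p = 0.00998). The histone genes were higher in root in K9107, with 3.11 ± 0.82 for wcH2B-8, 3.32 ± 0.96 for wcH2A-9 and 3.01 ± 0.71 for wcH2A-3. In HD2967 wcH2A-3 passed at 2.31 ± 0.71 (adjusted p = 0.0315), while wcH2B-8 at 2.26 ± 0.82 and wcH2A-9 at 2.53 ± 0.96 did not (adjusted p = 0.0660 and 0.0773). In K307 the values were -0.41, -0.36 and -0.04, with adjusted p of 0.760 and more. Tubb4 passed as higher in root in all 3, with 0.74, 1.18 and 0.80.

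**Figure D5:**
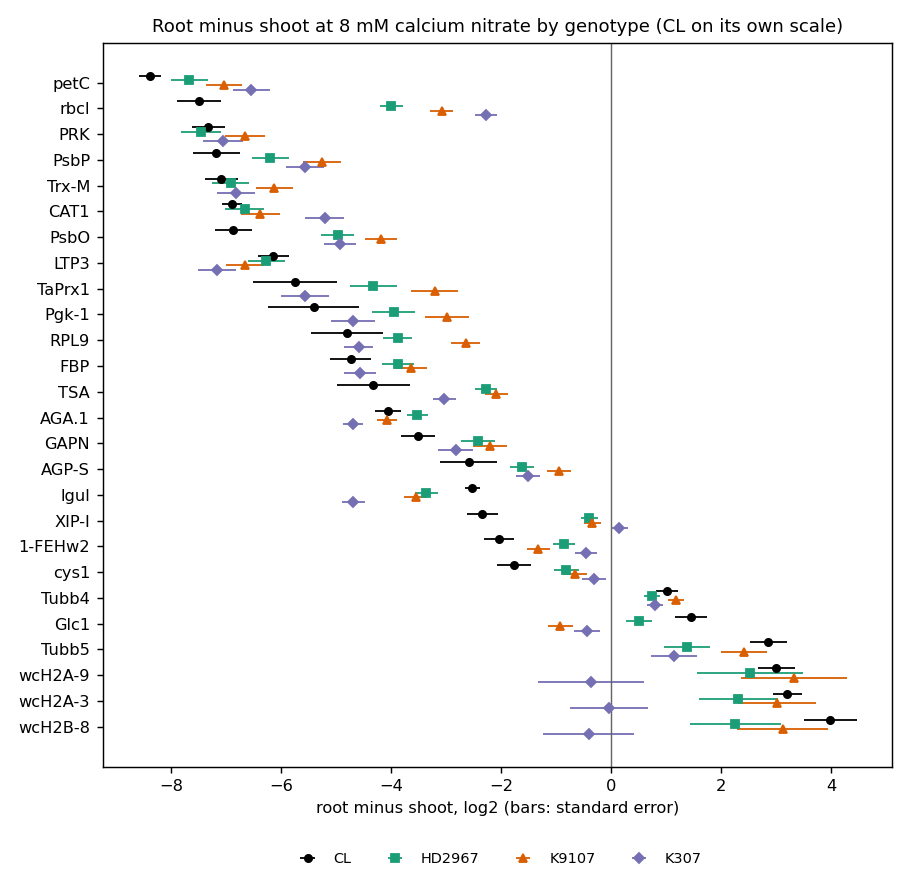
Root minus shoot at 8 mM calcium nitrate of the 26 CL genes in the 4 genotypes, on the log2 scale, with standard errors as bars. CL comes from a fit of 6 arrays on its own compressed scale and the other genotypes from 1 fit of 18 arrays with the normalization set as a term. The genes from petC to lgul are negative in every genotype, and the histone genes lie near 0 in K307.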

How the data were processed

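Labelled RNA was hybridised to Affymetrix Wheat Genome Arrays. The deposited log2 values were made by the authors with RMA and brought into GeneSpring 14.5, per the submitters' processing notes and series description. The version and settings of RMA are not given in the sources, nor is the make-up of its array batches. Array medians of all 48 arrays fell in 4 ranges, called normalization sets, and the 12 CL arrays filled 1 set alone.

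Values were used as deposited. Tests used lmFit, contrasts.fit and eBayes of limma 3.58.1 (R 4.3.3), two-sided, and p-values were adjusted after Benjamini and Hochberg across 61179 probe sets, with 0.05 as the threshold. Reporter probe sets, 64 in number, stayed in and 111 array controls were removed. The fits were 6 CL arrays (4 residual degrees of freedom), 12 CL arrays for tissue by nitrogen, and 18 arrays of the other genotypes with the normalization set as a fixed term. Data were simulated over 61179 probe sets with 200 of them changed. The fit of 6 arrays recovered 37 of 66 changes of 2 units and 1 of 67 changes of 1 unit. In the measured data 3725 probe sets passed, so the adjusted threshold was less strict and these rates do not carry over. Of the 2069 that passed as higher in root 924 differed by over 2 units, and 1068 of the 1656 higher in shoot. The smallest difference that passed was 0.61. An exact two-sided permutation test of 3 against 3 arrays cannot go below 0.1, and none was used. Depth has no meaning for arrays, and their number limits the precision.

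The annotation of 2007 pairs 1273 probe sets with 1 gene, 0 with several and leaves 60017 unnamed here. Of its 771 genes, 770 were found in the table of IWGSC CS RefSeq v2.1, and 102 carried an informative name, 83 of them in 14 groups by role. No nitrogen uptake or assimilation gene was among the named ones. Named in the text are up to 15 genes per direction with the widest differences that passed without overlap, further genes that passed in each group, the 3 smallest p of a group in which none passed, the interaction genes, 2 unnamed probe sets per direction and the reference genes. Members, groups and the naming rule were chosen with earlier results of these data known. Alternatives covered normalization, filter, variance model, the methods' t-test, a replicate block, the mean over probe sets and leaving out arrays.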

Additional observations from a re-analysis of the deposited data

Results flagged for a closer look

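On their brightest probe sets, 4 genes had a tissue difference that differed between the nitrogen supplies of CL. This was by the test of that difference itself (limma, 12 arrays, adjusted over 61179 probe sets). Root minus shoot at 8 mM minus the same at 0.08 mM was 5.40 for wcH2A-9 (adjusted p = 0.000468), 6.74 for wcH2B-8 (adjusted p = 0.00104), 4.11 for wcH2A-3 (adjusted p = 0.000468) and 3.40 for Tubb5 (adjusted p = 0.0129). In each of the 4 genes all 3 root arrays exceeded all 3 shoot arrays at 8 mM, and in the 3 histone genes all 3 shoot arrays exceeded all 3 root arrays at 0.08 mM.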

How the results depend on the processing

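The count of 3725 probe sets that differed between CL root and shoot was 3979 after another quantile normalization, 3514 with array medians subtracted, 4347 with dim probe sets filtered, 3693 with trend and robust eBayes, and 3726 with control probe sets kept, an alternative chosen after seeing the data. It was 5643 in a fit of all 12 CL arrays, 985 by the methods' t-test after Benjamini-Hochberg adjustment and 13348 at its unadjusted p of at most 0.1. Same-numbered root and shoot arrays had residual correlations of -0.217, -0.22 and 0.169, so the numbers were not taken to pair arrays, and a replicate block gave 2311. Leaving out 1 array gave 1846 to 4333, 246 to 436 for the interaction count of 363, and 10564 to 16028 in HD2967, 11378 to 16431 in K9107 and 11737 to 19305 in K307. With 1 array left out, the others of a group stand for its spread. Without the normalization set term the 3 genotypes had 5783, 6413 and 6516, and the share of calls higher in root was 45.9%, 48.6% and 41.8%, the last against 54.1% with it. The replicate block gave 285 for the interaction. The 25 CL genes followed through the alternatives were those that passed, except cys1. Of their 150 values with 1 array left out, 131 kept their side of the threshold. The other 19, in Glc1, Tubb4, TSA, Pgk-1 and AGP-S, lost it. Of 250 values under other settings, 232 kept it and 18 in 12 genes lost it, 12 of them by the methods' t-test. The block left Glc1 at an adjusted p of 0.0655, Tubb4 at 0.106 and 1-FEHw2 at 0.0509. Of 16 genes that had not passed, UBC1 passed in the fit of 12 arrays (adjusted p = 0.0286), and ha1, UBC1, TBP1 and Gli-8 passed at the methods' unadjusted p of at most 0.1. None of the 25 genes that had passed changed direction. Of those that had not passed, WZF1 (0.24) was at -0.07 without shoot array 1 and -0.22 without root array 1, and EM (-0.17) at 0.05 without shoot array 1. All 64 values of the 4 interaction genes kept their call. By the t-test 3 histone and 0 tubulin probe sets passed after adjustment, and 16 and 9 at an unadjusted p of at most 0.1. Values near the array medians limit what can be measured.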
